A study of Homo sapiens with 12 samples.

Results

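The HOXA cluster on chromosome 7 was described at the level of single CpGs in SV-HUC-1 cells exposed to DCBQ, which is 2,6-dichloro-1,4-benzoquinone, and in cells given blank solution. Members were the CpGs of the deposited tables that lie at chr7:27085000-27215000 (hg38), a window of 130 kb chosen by position and by no measured value. The window held 1694 of the 3689712 CpGs with a 5-methylcytosine (5mC) level and 1686 of the 3534314 with a 5-hydroxymethylcytosine (5hmC) level. Of these, 1686 had both marks and 8 had 5mC only. The window holds 19 annotated genes, of which 11 are HOXA genes and 8 are other transcripts.

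SV-HUC-1 is an established line of human urothelial cells that SV40 made immortal. DCBQ belongs to the chlorinated benzoquinones, byproducts of drinking-water disinfection, and the design asks whether it alters either mark. The groups were control cells, which received blank solution, and DCBQ cells, both for 3 days, each with 3 libraries of reduced representation bisulfite sequencing (RRBS) and 3 of its oxidative form. They shared the cell line and differed, per the labels, in the exposure only, at a dose that the sources used here do not give. All cells belong to 1 line, and the labels do not tell whether the 3 libraries of a group stem from different cultures. The spread on which every p-value rests may therefore be technical. RRBS cuts DNA at CCGG and reads mainly CpG-rich fragments, so the members are the CpGs near such sites and not all CpGs of the cluster. Levels are percent of readings per CpG, and differences are in percentage points, DCBQ minus control. The depth behind each level is unknown, so precision can be judged only from the 3 samples of a group.

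HOX genes encode homeodomain transcription factors that set position along the body axis. Within a cluster they lie in the order in which they act, from anterior to posterior, and many long noncoding RNAs lie between them. Polycomb and Trithorax complexes keep the genes of a cluster silent or active, CpG islands at their starts usually lack 5mC when Polycomb or Trithorax holds them, and the cluster is often abnormally methylated in tumours. 5hmC is made from 5mC by TET dioxygenases.

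Promoter sequences of 300 bases, from 250 before to 50 after a transcription start, were taken from RefSeq (GRCh38.p14), where 9 HOXA genes had an entry and HOXA5 had none. The following 5 were picked after the levels were seen, to show the range of levels that the cluster held. At their measured CpGs they run from almost no 5mC (HOXA13) through intermediate levels (HOXA7, HOXA9) and a step (HOXA11) to near-complete 5mC (HOXA6). All lie on the minus strand and are written 5′ to 3′, with the CpGs that have a 5mC value in capitals.
HOXA6, chr7:27147725-27148024: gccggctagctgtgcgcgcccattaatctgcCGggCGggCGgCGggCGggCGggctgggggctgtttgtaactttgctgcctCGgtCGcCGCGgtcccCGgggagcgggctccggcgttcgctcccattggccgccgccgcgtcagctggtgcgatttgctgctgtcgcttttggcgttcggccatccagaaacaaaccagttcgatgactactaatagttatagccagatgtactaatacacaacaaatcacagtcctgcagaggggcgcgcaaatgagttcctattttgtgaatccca
HOXA7, chr7:27156626-27156925: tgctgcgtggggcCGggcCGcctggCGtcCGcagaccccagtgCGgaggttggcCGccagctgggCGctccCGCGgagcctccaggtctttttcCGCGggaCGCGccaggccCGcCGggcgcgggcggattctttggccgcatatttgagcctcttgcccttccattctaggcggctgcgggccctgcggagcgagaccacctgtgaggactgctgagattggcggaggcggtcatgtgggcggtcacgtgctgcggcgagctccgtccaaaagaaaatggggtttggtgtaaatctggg
HOXA9, chr7:27165488-27165787: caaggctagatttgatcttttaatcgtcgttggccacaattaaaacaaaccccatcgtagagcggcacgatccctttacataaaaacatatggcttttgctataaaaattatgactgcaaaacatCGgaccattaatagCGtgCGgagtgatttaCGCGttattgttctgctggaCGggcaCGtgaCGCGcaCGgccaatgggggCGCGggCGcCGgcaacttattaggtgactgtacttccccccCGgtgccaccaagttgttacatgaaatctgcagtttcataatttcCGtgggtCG
HOXA11, chr7:27185183-27185482: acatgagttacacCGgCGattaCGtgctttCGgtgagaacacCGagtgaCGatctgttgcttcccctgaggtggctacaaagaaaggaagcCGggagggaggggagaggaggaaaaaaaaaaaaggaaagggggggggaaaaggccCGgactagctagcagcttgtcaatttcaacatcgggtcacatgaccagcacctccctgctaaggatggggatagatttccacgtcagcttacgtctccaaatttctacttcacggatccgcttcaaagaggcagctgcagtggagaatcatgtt
HOXA13, chr7:27200042-27200341: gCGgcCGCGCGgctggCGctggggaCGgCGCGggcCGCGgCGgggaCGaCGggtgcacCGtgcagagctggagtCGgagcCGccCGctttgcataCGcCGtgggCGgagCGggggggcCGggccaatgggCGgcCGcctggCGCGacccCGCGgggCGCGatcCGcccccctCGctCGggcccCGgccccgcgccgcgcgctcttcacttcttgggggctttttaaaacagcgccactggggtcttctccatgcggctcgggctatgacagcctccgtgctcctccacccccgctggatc

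The HOXA13 sequence held 44 CpGs, more than 95.8% of all 35116 promoters of that table, and 34 of its CpGs were measured. HOXA7 held 31 CpGs with 15 measured, HOXA6 29 with 11, HOXA9 22 with 17, and HOXA11 13 with 8. The median promoter of the table held 14.0 CpGs. The motif CCGG, which reads the same on both strands, occurred 2 times in the HOXA7, HOXA9 and HOXA13 sequences, 3 times in HOXA11 and 4 times in HOXA6, and 63.1% of all promoters of the table held it at least once.

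Along the cluster, stretches almost free of 5mC were interspersed with intermediate and highly methylated ones. In tiles of 1 kb with at least 5 CpGs, of which the window held 66, control 5mC ranged from 1.03% (chr7:27130001-27131000, at the start of HOXA4) to 98.06% (chr7:27168001-27169000, at the edge of HOXA10-AS). A total of 15 tiles were under 20%, 21 were between 20% and 80%, and 30 were over 80%. Among single CpGs, 37% were under 20%, 22.9% between and 40.1% over 80%, against 32.4%, 26.1% and 41.4% of the other CpGs with both marks. As a description, Pearson's r across the 66 tiles was 0.993 to 0.998 between samples of the same group and 0.994 to 0.997 between samples of different groups. Tiles share libraries and CpG density, so these are not independent points.

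**Figure D1:**
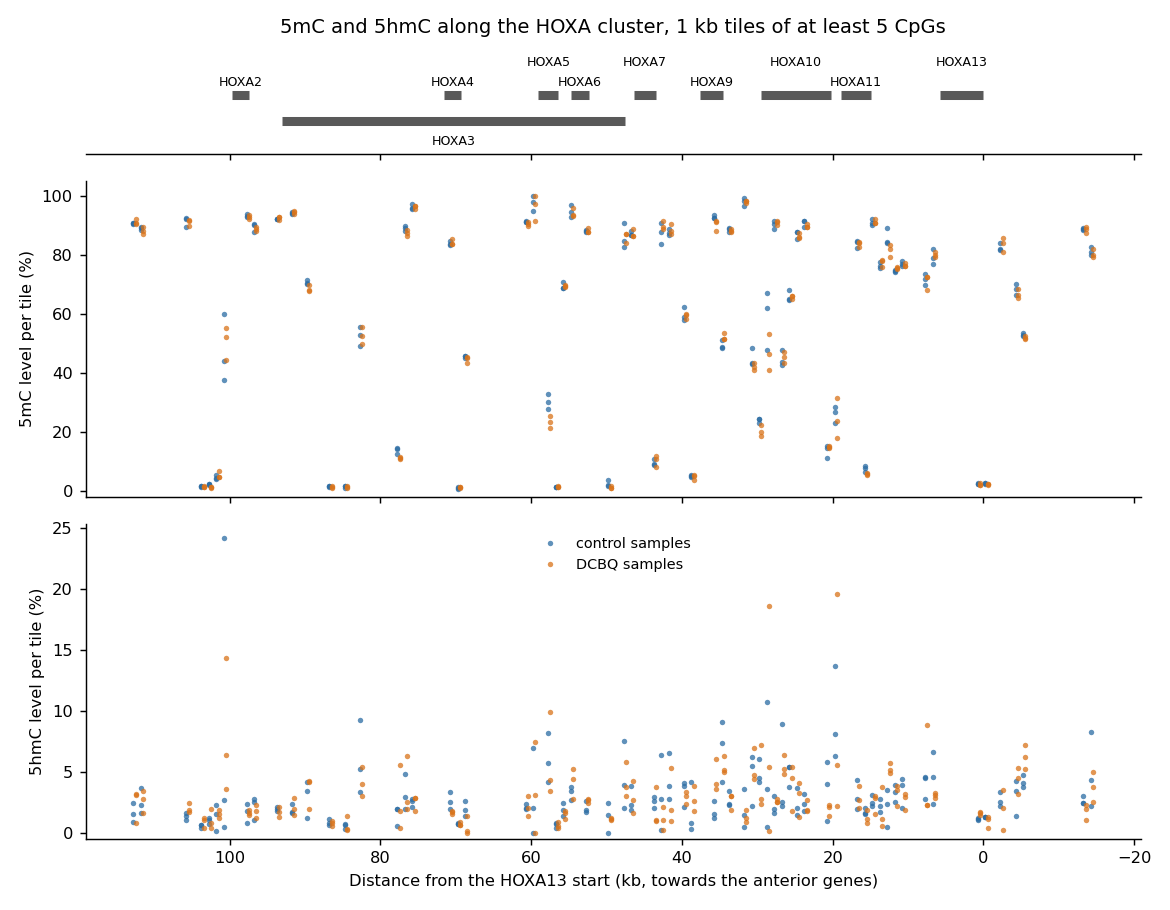
Levels along the HOXA cluster: gene spans (top), 5mC in percent (middle) and 5hmC in percent (bottom) for each 1 kb tile and each of the 6 samples, against the distance in kb from the HOXA13 start, with the anterior genes at the left. The 5mC points of the 6 samples lie almost on each other, between 1.03% and 98.06% in controls, while the 5hmC points scatter.

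Runs of at least 10 neighbouring CpGs, each under 20% in the mean of all 6 samples, numbered 10. They held 578 CpGs, 34.1% of those measured. The 9 described here lie from HOXA3 to HOXA13. The run with most CpGs, 137 at chr7:27199121-27200562, held the starts of HOXA13, the most posterior gene and a regulator of limb and urogenital development, and of HOTTIP, a noncoding RNA at the tip of the cluster. It read 1.73%, 1.95% and 1.87% in controls and 1.42%, 1.38% and 1.89% in DCBQ.

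Further runs marked some other HOXA starts. The run at chr7:27129994-27131037 held the HOXA4 start and read 1.19% ± 0.31 (SD, n = 3) in controls and 1.13% ± 0.14 in DCBQ. The run at chr7:27142322-27144079 covered the HOXA5 region, 1.79% ± 0.25 and 1.39% ± 0.2, and the run at chr7:27156073-27156809 held the HOXA7 start, 3.96% ± 0.21 and 3.35% ± 1.37. An internal start of HOXA3 lay in a run at chr7:27113517-27115753 that read 1.41% ± 0.1 and 1.27% ± 0.35. Inside HOXA11, downstream of its start, a run at chr7:27184162-27184812 read 2.83% ± 0.64 and 2.11% ± 0.31. The other 3 runs were less empty. The one from 27160744, between HOXA7 and HOXA9, read 5.51% ± 0.97 in controls and 4.78% ± 0.69 in DCBQ. Those from 27169662 in HOXA10-AS and from 27173562 in HOXA10 read 9.25% ± 3.93 and 10.48% ± 0.83 in controls, and 7.96% ± 2.26 and 11.03% ± 3.07 in DCBQ. Of all 10 runs, 9 read lower in DCBQ, and in 1 the 3 DCBQ samples all lay below the 3 controls, where 59.9% of all 1 kb tiles of the table were lower and 8.11% apart on the lower side. All other CpGs under 20% in the table were likewise lower, with 3.33% in controls and 3.15% in DCBQ and the groups apart. The runs were chosen on the mean of control and DCBQ samples together, so this count is a description, with no test.

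Averaged over the whole window, 5mC read 51.454%, 51.398% and 51.82% in controls and 51.053%, 51.262% and 51.41% in DCBQ. The DCBQ samples were mostly lower, but the highest of them lay above the lowest control. The difference was -0.316 points (SE 0.168; two-sided exact permutation p = 0.2). The 20 ways of relabelling 6 samples allow no p below 0.1, so a threshold of 0.05 is out of reach of this test. All other CpGs of the table differed by -0.416 points (SE 0.105; exact permutation p = 0.1), from 54.544% to 54.128%, with the groups apart. The HOXA level relative to them was -2.987 points in controls and -2.887 in DCBQ, a change of 0.1 (SE 0.212; exact permutation p = 0.6), so no difference of the cluster from the rest was detected. Weighting each 1 kb tile alike, which gives sparse tiles more say, moved the cluster difference to -1.158 points (exact permutation p = 0.1).

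Among the other HOX clusters, HOXB differed from 51.675% to 51.738%, HOXC from 47.011% to 46.599% and HOXD from 37.268% to 37.441%. HOXA minus HOXB changed by -0.379 points (SE 0.424), HOXA minus HOXC by 0.096 (SE 0.243) and HOXA minus HOXD by -0.489 (SE 0.231). The exact permutation p was 0.5, 0.8 and 0.2, and 0.75, 0.8 and 0.6 after adjustment over these 3 comparisons. The change against HOXB was -0.07 without control sample 3, -0.111 without DCBQ sample 1 and -0.621 without control sample 1, and that against HOXD was -0.311 without control sample 3. Within HOXA, the CpGs nearest to the anterior genes, up to HOXA7, read 50.295% ± 0.17 in controls and 50.021% ± 0.145 in DCBQ, and those nearest to HOXA9 to HOXA13 read 52.69% ± 0.334 and 52.336% ± 0.433. The posterior minus anterior difference changed by -0.081 points (SE 0.359; exact permutation p = 0.9).

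For 5hmC the window averaged 2.961%, 2.676% and 2.471% in controls and 2.659%, 2.619% and 2.682% in DCBQ. The controls spanned the DCBQ samples, and the difference was -0.049 points (SE 0.143; exact permutation p = 0.8). Posterior genes held more 5hmC than anterior ones in both groups, with 3.32% ± 0.377 against 2.015% ± 0.125 in controls and 3.268% ± 0.196 against 1.969% ± 0.241 in DCBQ. HOXA minus HOXC in 5hmC was -0.463 points in controls and -0.582 in DCBQ, a change of -0.119 (SE 0.039) with the groups apart (exact permutation p = 0.1; adjusted over the 3 clusters, p = 0.3). The changes against HOXB and HOXD were -0.03 (SE 0.153) and 0.076 (SE 0.165).

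Promoters of 10 HOXA genes were taken as 2 kb, from 1500 bp before to 500 bp after the outermost start, or at the CpG-dense gene end for HOXA5. They spread over the whole scale. In control 5mC, HOXA13 (1.85% ± 0.42) and HOXA4 (8.17% ± 0.35) were the lowest. Intermediate means were those of HOXA10 (17.47% ± 2.39), HOXA7 (30.2% ± 0.59), HOXA5 (30.46% ± 0.34) and HOXA9 (63.28% ± 1.23). The highest were HOXA11 (75.89% ± 1.11), HOXA6 (85.83% ± 0.18), HOXA3 (86.37% ± 2.91) and HOXA2 (93.77% ± 0.43). Neighbours in this order that lay within each other's spread were HOXA7 and HOXA5, and HOXA6 and HOXA3. The order did not follow the order of the genes along the chromosome.

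None of these promoters passed the test for 5mC. Limma called 0 of 10 at an adjusted p of 0.05, with 0 at an unadjusted p under 0.05 (4.47% of all promoters on the lower and 2.14% on the higher side), and over the whole table it called 0 of 15316 promoters (0%). Of the 10, 6 were lower (60.0%, beside 59.6% of all) and 4 higher in DCBQ, with a median difference of -0.12 points beside -0.1 for all promoters. The groups were apart at 0 on the lower side (8.14% of all promoters) and at 0 on the higher side (3.72% of all).

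HOXA2, a gene of hindbrain and branchial arch patterning, read 93.77% ± 0.43 and 93.32% ± 0.24. HOXA3, which is needed for the thymus and parathyroid, read 86.37% ± 2.91 and 86.42% ± 1.57. HOXA4 read 8.17% ± 0.35 and 8.05% ± 0.37, HOXA5, a gene of lung development, 30.46% ± 0.34 and 30.23% ± 0.12, and HOXA6 85.83% ± 0.18 and 85.7% ± 0.67. Centring each sample on its mean over all CpGs takes the whole-table difference of -0.416 points out of every 5mC difference, so the lower values of HOXA4, HOXA5, HOXA6 and HOXA13 in DCBQ turned to higher ones. The other CpGs of the table with both marks and under 20% 5mC differed by only -0.18 points. For promoters that low, such as HOXA4 and HOXA13, centring therefore takes out more than CpGs of their level differed by.

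In the middle and posterior genes, HOXA7 read 30.18%, 30.8% and 29.62% in controls and 32.4%, 32.87% and 28.7% in DCBQ. Its DCBQ samples were split, 2 above and 1 below all controls (difference 1.12 points, limma SE 1.2, adjusted p = 0.919). That difference was 0.581, 0.351 and 2.432 points without DCBQ sample 1, 2 and 3. HOXA9, a regulator of blood stem cells whose promoter is often methylated in tumours, read 62.92%, 62.27% and 64.64% in controls and 64.47%, 64.49% and 65.86% in DCBQ. The DCBQ samples were mostly higher, with 1 control inside their range (difference 1.67 points, limma SE 1.01, unadjusted p = 0.147, adjusted p = 0.848). HOXA10 and HOXA11, which pattern the reproductive tract and limb, read 17.47% ± 2.39 and 17.82% ± 1.96, and 75.89% ± 1.11 and 75.4% ± 0.92. HOXA13 read 1.85% ± 0.42 and 1.63% ± 0.15.

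**Figure D2:**
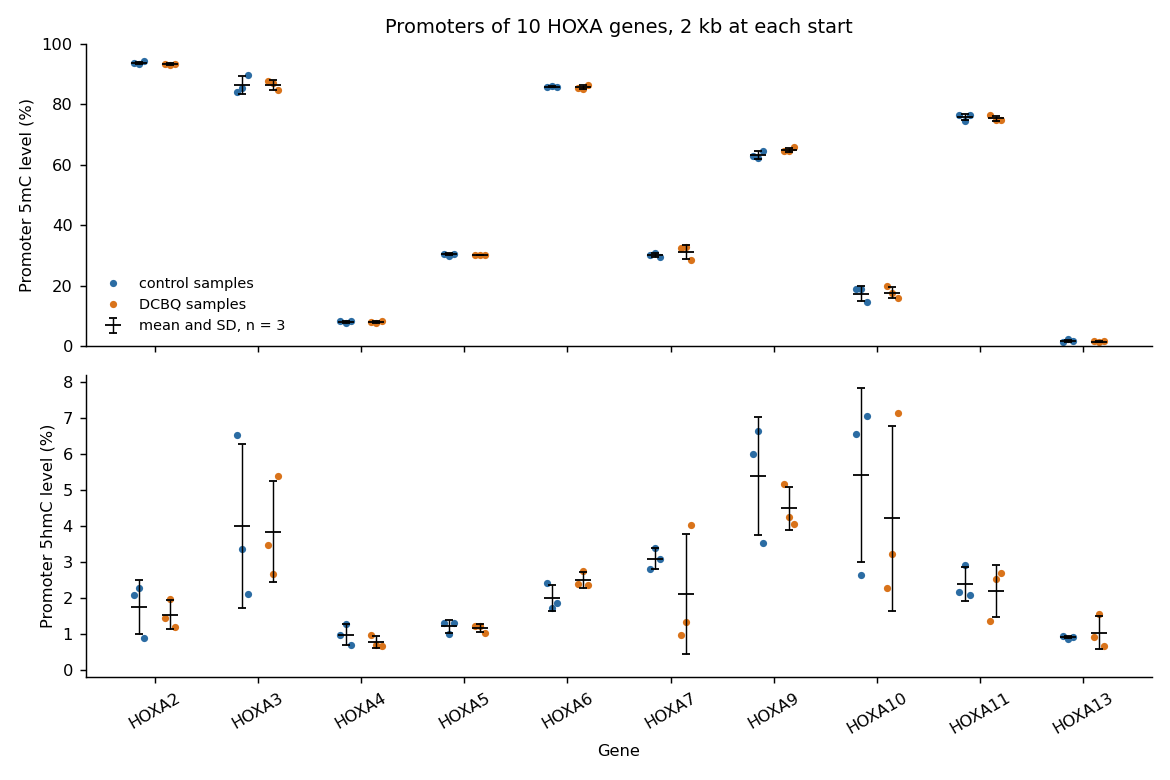
Mean level of each 2 kb HOXA promoter in each sample, 5mC in percent (top) and 5hmC in percent (bottom), with controls and DCBQ side by side and black bars for the mean and SD of 3 samples. Promoters range from 1.85% to 93.77% 5mC in controls, and at all 10 the 5mC points of the groups overlap.

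5hmC at the promoters was low, between 0.92% and 5.41% in controls. It was highest at HOXA10 (5.41% ± 2.41 in controls, 4.2% ± 2.57 in DCBQ), HOXA9 (5.39% ± 1.63 and 4.49% ± 0.6), HOXA3 (4% ± 2.27 and 3.84% ± 1.39) and HOXA7 (3.09% ± 0.29 and 2.12% ± 1.65). At HOXA7 the DCBQ samples were again split, with 0.99% and 1.35% below all controls and 4.02% above them. The lowest were HOXA13 (0.92% ± 0.04 and 1.04% ± 0.45) and HOXA4 (0.98% ± 0.29 and 0.79% ± 0.17). HOXA5 read 1.21% ± 0.18 and 1.17% ± 0.11, HOXA2 1.75% ± 0.75 and 1.54% ± 0.4, HOXA6 2% ± 0.37 and 2.51% ± 0.22, and HOXA11 2.39% ± 0.47 and 2.2% ± 0.73. Limma called 0 of 10 (0% of 15204 promoters), with 0 at an unadjusted p under 0.05, where 1.96% of all were lower and 2.95% higher. Of the 10, 8 were lower (46.0% of all), and 0 had the groups apart, where 4.26% of all promoters were apart on the lower and 5.67% on the higher side.

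The shorter promoters, the 300 bases of which 5 are printed above, were added after the 2 kb values were seen. They resolve where within a promoter the intermediate levels lie. At HOXA9, whose 17 measured CpGs run from 124 bp before the start to 49 bp after it, control levels of single CpGs ranged from 16.67% to 56.3%, so no CpG was empty or full. The mean read 37.53%, 48.74% and 38.42% in controls and 51.89%, 46.77% and 48.4% in DCBQ. Control sample 2 stood within the DCBQ range and the other controls below it, so the groups overlapped. The difference was 7.46 points (limma SE 3.7, unadjusted p = 0.0817, adjusted p = 0.898), and between 5.442 and 11.048 when any 1 sample was left out. Of the 17 CpGs, 15 read higher in DCBQ and at 3 the groups were apart on the higher side. Over all CpGs of the table that varied, 53.5% read lower and 3.36% were apart on the higher side. The largest difference was 124 bp before the start, with 31%, 45.1% and 34.6% in controls and 53.2%, 53.2% and 45.9% in DCBQ. CpGs this close share fragments and reads, so they are not independent.

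HOXA7 also held intermediate CpGs, between 11.7% and 58.2% in controls over the 15 measured, but these all lie 134 to 236 bp before the start. The run that spans its start, chr7:27156073-27156809, read 3.96% ± 0.21 in controls. Further upstream, the tile chr7:27157001-27158000 read 87.49% ± 3.6. The mixture at HOXA9 is unlike this, since it reaches across the start. The mean over the 15 HOXA7 CpGs read 27.45%, 33.57% and 24.64% in controls and 36.28%, 35.99% and 28.84% in DCBQ. DCBQ samples 1 and 2 exceeded all controls and sample 3 did not (difference 5.15 points, limma SE 3.26, unadjusted p = 0.156, adjusted p = 0.904). Without any 1 sample it was 3.194 (control sample 3 left out) to 7.658 points. Of the 15 CpGs, 14 read higher in DCBQ, and 2, at 184 and 195 bp before the start, had the groups apart on the higher side (again beside 53.5% lower and 3.36% apart over the table). The 195 bp CpG read 33.9%, 37.8% and 31.4% in controls and 41.8%, 44.9% and 41.2% in DCBQ.

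HOXA11 showed a step. The CpG 103 bp before the start read 3.03% ± 5.25 in controls, the one at 158 bp 46% ± 5.68, and the 6 from 200 to 236 bp before it at least 94.1%. In DCBQ the same step read 5.53% ± 0.6, 44.77% ± 5.42 and at least 93.77%. Its 300-base mean was 78.62% ± 0.97 and 79% ± 0.35. The low CpG and the intermediate one lie between the start of HOXA11 (27185232) and that of its antisense gene HOXA11-AS (27185408).

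HOXA6 was almost fully methylated, 92.55% ± 0.71 in controls and 91.64% ± 0.61 in DCBQ over 11 CpGs. Its CpG nearest to the start among those measured, at 151 bp before it, read 75%, 80% and 88.9% in controls and 72.2%, 65.5% and 55.3% in DCBQ. It was apart on the lower side by -16.97 points, while the next, at 158 bp, read 76.23% and 80.2%. Of the 11 HOXA6 CpGs, 1 was apart on the lower and 0 on the higher side, beside 4.66% and 3.36% of all CpGs of the table that varied. HOXA10 read 15.29% ± 2.51 and 16.19% ± 0.72 over 18 CpGs, which ranged from 3.73% to 37.37%. HOXA13 read 1.13% ± 0.36 and 1% ± 0.19, with no CpG of the printed sequence above 4.5% in controls or 5.47% in DCBQ.

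HOXA3 has several starts, and they differed in level. Beside the outer start, whose 2 kb promoter read 86.37%, the start at 27150950 read 2.73% ± 1.56 in controls and 1.31% ± 0.69 in DCBQ and the start at 27113842 read 2.02% ± 0.71 and 1.5% ± 0.83. The start at 27123027, with 4 CpGs and so below the minimum for a test, read 72.35%, 74.9% and 73.22% in controls and 69.78%, 65.25% and 66.78% in DCBQ. All its DCBQ samples lay below the controls, by -6.22 points (SE 1.53). Among the tested 300-base promoters of the table, 6.63% were apart on the lower side.

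Limma called 0 of the 10 tested 300-base promoters in the window, against 0% of 15073 in the table. An unadjusted p under 0.05 was met by 0 (3.52% of all on the lower and 2.02% on the higher side), the groups were apart at 0 (6.63% and 4.04%), and 6 were lower (55.4% of all). In 5hmC it called 0 of 10 as well (0% of 14941), with 0 at an unadjusted p under 0.05 (2.03% of all on the lower and 2.68% on the higher side) and 7 lower (48.7% of all). The HOXA11 promoter had its 5hmC groups apart, 3.52%, 3.17% and 3.72% in controls and 1.25%, 1.77% and 2.87% in DCBQ (difference -1.5 points, limma SE 0.75, adjusted p = 0.976). That is 1 of 10 on the lower side, beside 4.38% of all, and 0 on the higher, beside 5.39%. At HOXA9 5hmC read 3.38% ± 1.23 and 1.76% ± 1.15, at HOXA10 5.05% ± 1.96 and 3.2% ± 1.33, and at HOXA7 4.34% ± 2.59 and 4.2% ± 4.44.

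**Figure D3:**
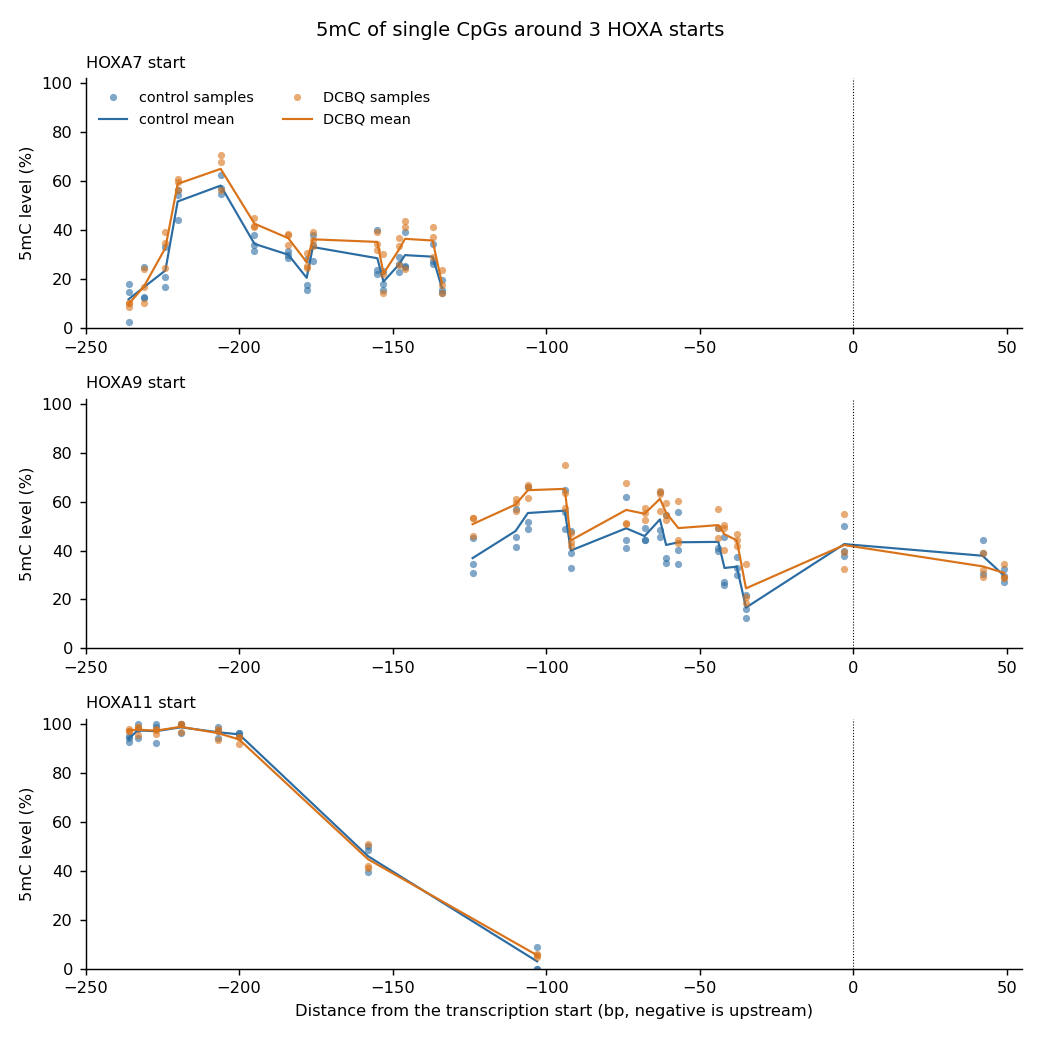
5mC in percent at each measured CpG against its distance in bp from the transcription start, for HOXA7 (top), HOXA9 (middle) and HOXA11 (bottom), with 1 point per sample and lines through the group means. HOXA11 steps between 3.03% at 103 bp and 95.83% at 200 bp before the start in controls, and at HOXA9 and HOXA7 the DCBQ line lies above the control line at 15 of 17 and 14 of 15 CpGs, which share fragments and reads, while 53.5% of the CpGs of the table that varied read lower in DCBQ.

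The rest of each gene span, from 500 bp inside the start to the other end, was methylated at very different levels too. Control 5mC ranged from 7.73% at HOXA13 and 8.64% at HOXA7 through 17.62% at HOXA5, 25.89% at HOXA11, 37.07% at HOXA4, 48.86% at HOXA3 and 63.39% at HOXA10 to 90.11% at HOXA2 and 92.2% at HOXA9. HOXA6 had fewer than 5 CpGs there. The HOXA3 span, chr7:27107010-27152583, also covers HOXA4, HOXA5 and HOXA6, so it shares CpGs with them.

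HOXA3 read 48.92%, 48.71% and 48.94% in controls and 48.18%, 48.25% and 48.26% in DCBQ over 476 CpGs. All DCBQ samples lay below all controls (difference -0.63 points, limma SE 0.35, adjusted p = 0.646), and -0.21 remained after centring. HOXA5 read 16.16%, 19.6% and 17.1% in controls and 14.96%, 16.25% and 13.2% in DCBQ. Its highest DCBQ sample exceeded the lowest control by little (difference -2.82 points, limma SE 1.13, unadjusted p = 0.0477, adjusted p = 0.574). HOXA9 read 92.2% ± 0.97 and 89.69% ± 2.77, HOXA11 25.89% ± 0.74 and 24.96% ± 0.5, and HOXA13 7.73% ± 0.42 and 7.21% ± 0.45. Limma called 0 of 9 (0% of 16540), with 1 lower and 0 higher at an unadjusted p under 0.05, beside 7.08% and 1.59% of all. The groups were apart at 1 of 9 on the lower side, where 13.7% of all gene spans were, and at 0 on the higher (2.23%). Of the 9, 7 were lower (77.8%, beside 69.7% of all). The median difference was -0.52 points, beside -0.39 for all.

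In 5hmC, the span of HOXA9 read 1.45%, 3.08% and 1.17% in controls and 3.79%, 6.16% and 3.42% in DCBQ. All DCBQ samples exceeded all controls (difference 2.56 points, limma SE 0.86, unadjusted p = 0.0209, adjusted p = 0.927) over 20 CpGs. HOXA11 was apart on the lower side, with 1.93%, 2.07% and 2.17% and 1.52%, 1.86% and 1.54%. HOXA10 was split by 1 control, with 6.14%, 2.53% and 2.88% in controls and 4.62%, 4.43% and 4.1% in DCBQ. Limma called 0 of 9 (0% of 16407), with 1 higher and 0 lower at an unadjusted p under 0.05 (3.41% and 1.94% of all), and 4 were lower (43.7% of all). Groups were apart at 1 of 9 on the higher side and 1 of 9 on the lower, where 6.40% and 3.50% of all were.

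Among the 66 tiles of 1 kb, limma called 0 for 5mC (0% of 210424), with adjusted p from 0.720 upward. An unadjusted p under 0.05 was met by 6 on the lower side (9.09%, beside 4.47% of all tiles) and 0 on the higher side (1.73% of all). The groups were apart on the lower side at 9 tiles (13.6%, beside 8.11%) and on the higher side at 2 (3.03%, beside 3.38%). Of the 66, 41 were lower (62.1%, beside 59.9%). The median difference was -0.24 points, beside -0.33 for all tiles, so the typical HOXA tile differed no more than the typical tile.

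The tile with the smallest p lay at chr7:27142001-27143000, inside HOXA5, HOXA3 and HOXA-AS3. It read 27.71%, 32.77% and 30.21% in controls and 23.37%, 25.17% and 21.33% in DCBQ over 7 CpGs. All DCBQ samples were lower (difference -6.94 points, limma SE 1.67, unadjusted p = 0.00457, adjusted p = 0.72). Centring left it at -6.53 points. Next was chr7:27122001-27123000, inside HOXA3 and HOXA-AS2, where 5 CpGs read 14.34%, 12.32% and 14.04% in controls and 10.98%, 10.66% and 11.28% in DCBQ (limma adjusted p = 0.727). The tile differed by -2.59 points, while among its 5 CpGs the one at 27122702 differed by -13.03 points. That CpG is also named among the single CpGs below, so the tile and the CpG are not separate results. The tile at chr7:27170001-27171000, inside HOXA10-AS, read 24.23%, 24.32% and 23.08% in controls and 18.51%, 19.87% and 22.3% in DCBQ over 19 CpGs (limma adjusted p = 0.75). In each of these 3 the groups did not overlap. The largest difference, -12.11 points, was at chr7:27171001-27172000 in HOXA10-AS, where 5 CpGs read 67.14%, 47.7% and 61.92% in controls and 53.1%, 40.9% and 46.42% in DCBQ, with overlap (limma adjusted p = 0.817; singled out after its values were seen).

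On the higher side, the smallest p belonged to chr7:27165001-27166000, which holds the HOXA9 start. Its 68 CpGs read 48.64%, 48.4% and 51.25% in controls and 51.46%, 51.37% and 53.47% in DCBQ (difference 2.67 points, limma SE 1.96, unadjusted p = 0.217, adjusted p = 0.89). All DCBQ samples were higher, by little. The neighbouring tile inside HOXA9, chr7:27164001-27165000, went the other way, with 92.49%, 93.61% and 92.39% in controls and 91.03%, 88.11% and 91.56% in DCBQ, also without overlap (limma adjusted p = 0.818). The other tiles named on the higher side, from 27157001 upstream of HOXA7 and from 27179001 at HOXA10, read 87.49% ± 3.6 and 89.94% ± 1.39, and 13.49% ± 2.27 and 14.83% ± 0.29, with overlap.

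**Figure D4:**
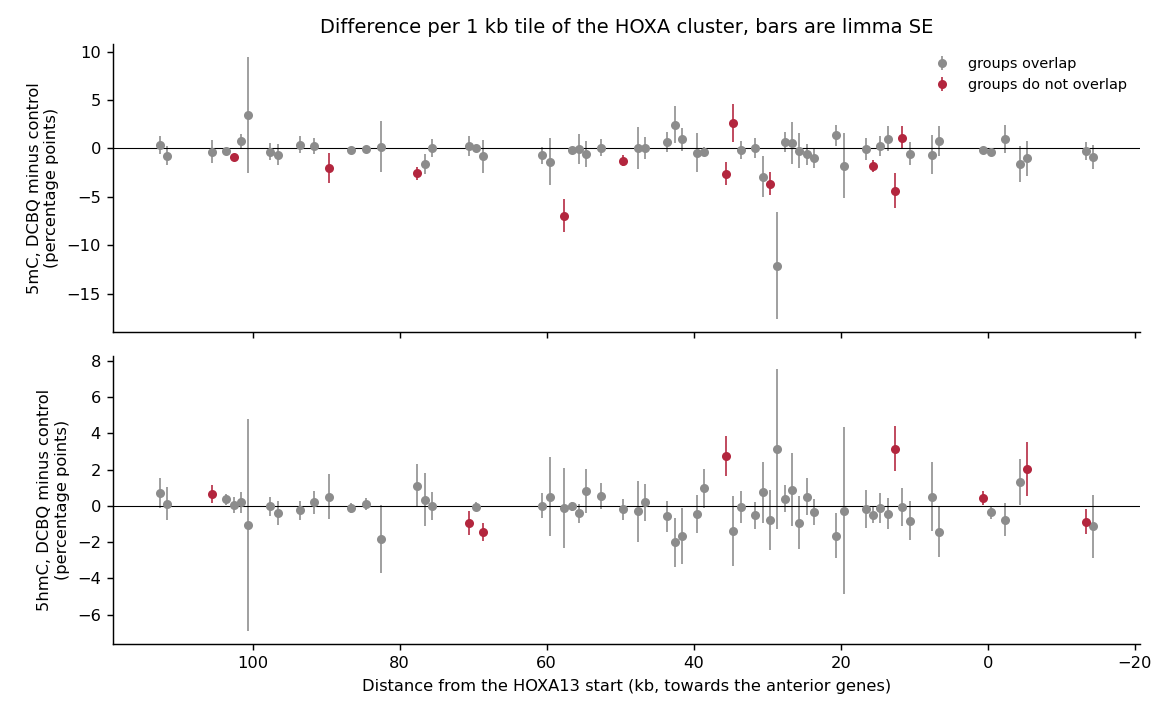
Difference between the DCBQ and control means of each tested 1 kb tile, in percentage points with limma SE bars, against the distance in kb from the HOXA13 start, for 5mC (top) and 5hmC (bottom), with tiles whose groups do not overlap drawn in colour. For 5mC 9 coloured tiles lie below 0 and 2 above, and for 5hmC 3 lie below and 5 above.

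For 5hmC, limma called 0 of 66 tiles (0% of 201896), with 1 lower and 2 higher at an unadjusted p under 0.05 (2.08% and 2.75% of all) and 37 lower (47.2% of all). The groups were apart at 3 tiles on the lower side (4.55%, beside 4.39% of all) and at 5 on the higher (7.58%, beside 5.55%). The higher tiles included chr7:27187001-27188000 inside HOXA11-AS, with 2.34%, 0.45% and 3.54% in controls and 5.71%, 5.15% and 4.94% in DCBQ. The tile chr7:27164001-27165000 inside HOXA9 read 1.53%, 2.58% and 1.24% in controls and 3.99%, 6.05% and 3.6% in DCBQ. Both had all DCBQ samples above all controls (limma unadjusted p = 0.0303 and 0.0317, adjusted p = 0.974 for both). At both, 5mC was lower in DCBQ, with 85.99% and 81.63% in the HOXA11-AS tile and 92.83% and 90.23% in the HOXA9 tile. The tile at chr7:27205001-27206000 in HOTTIP read 4.1%, 4.73% and 3.75% in controls and 6.25%, 7.19% and 5.26% in DCBQ. On the lower side, chr7:27131001-27132000, just before the HOXA4 start, read 1.87%, 2.64% and 1.39% in controls and 0%, 1.39% and 0.18% in DCBQ, with the highest DCBQ and the lowest control both 1.39% after rounding.

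Single CpGs gave 0 calls among the 1600 that varied in 5mC (0% of 3419211 in the table), with 38 lower and 16 higher at an unadjusted p under 0.05 (2.77% and 1.92% of all). The groups were apart at 67 CpGs on the lower side (4.19%, beside 4.66%) and 61 on the higher (3.81%, beside 3.36%), and 872 were lower (53.5% of all). The CpG at chr7 position 27122702, inside HOXA3 and HOXA-AS2, read 25%, 20% and 21.4% in controls and 11.1%, 9.1% and 7.1% in DCBQ, while its 5hmC was 2.56% and 9.24%. At 27169266, in HOXA10-AS, 5mC read 81.6%, 84.1% and 82.6% in controls and 50%, 61.5% and 56.8% in DCBQ, a difference of -26.67 points (limma SE 5.13, unadjusted p = 0.00129, adjusted p = 0.865), and 5hmC 4.31% and 17.81%. At 27192451, between HOXA11 and HOXA13, 5mC read 96.97% ± 5.25 and 81.27% ± 2.81 and 5hmC 3.03% and 13.98%.

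On the higher side, 27160185, between HOXA7 and HOXA9, read 87%, 85.7% and 85.7% 5mC in controls and 100%, 100% and 95.8% in DCBQ, with 12.42% and 1.39% 5hmC (limma unadjusted p = 0.000889, adjusted p = 0.861). Next were 27185680 in HOXA11-AS, 86.9% ± 3.12 and 96.7% ± 2.93 with 6.27% and 0% 5hmC, and 27189469, 88.9% ± 2.69 and 97.83% ± 3.75 with 8.54% and 0%. Both marks of a sample were derived by the authors in a way that the sources used here do not give, so the 5hmC values are not independent evidence beside the 5mC values.

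For 5hmC limma called 0 of 1540 CpGs in the window, with 8 lower and 6 higher at an unadjusted p under 0.05 (0.519% and 0.390%, beside 0.908% and 1.07%). The groups were apart at 51 on the lower and 37 on the higher side (2.90% and 3.14% of all), and 793 were lower (49.2% of all). In the whole table it called 3 of 3153081 (9.51e-05%). The 6 with the smallest p, 3 in each direction, were each listed at 0 in all samples of 1 group. At 27192984, between HOXA11 and HOXA13, the controls read 6.25%, 20% and 17.5%, at 27180020, in the HOXA10 promoter, 5.26%, 20% and 14.29%, and at 27117795, in HOXA3, 20%, 7.55% and 11.33%. All were listed at 0 in the 3 DCBQ samples. In the other direction, 27145202, in HOXA3 and HOXA-AS3, was listed at 0 in controls and read 20%, 16.67% and 10% in DCBQ, and its neighbour 27145215 read 20%, 16.67% and 0%. At 27169828 only DCBQ sample 3 was above 0, with 46.15%. The limma adjusted p was 0.781 at all 6.

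5hmC was highest where 5mC was intermediate. CpGs with 20% to 80% 5mC averaged 5.57% ± 1.16 5hmC in controls and 5.39% ± 0.27 in DCBQ. CpGs under 20% averaged 1.51% ± 0.17 and 1.39% ± 0.15, and CpGs over 80% averaged 2.16% ± 0.07 and 2.25% ± 0.09. The other CpGs of the table had the same order, with 6.43%, 1.55% and 2.86% in controls. In the cluster the spread had this order too, with a median SD between samples of 5.03, 1.23 and 2.11 points per CpG. 5hmC was above 0 in every sample at 11.9%, 1.44% and 1.92% of these CpGs. The part of the spread in the order of the levels was not tested. By tile, the control median of 5hmC was 1.31% under 20% 5mC (range 0.54% to 3.59%), 4.51% between (1.92% to 9.34%) and 2.5% over 80% (1.37% to 4.91%). Among tiles with at least 10 CpGs the highest was the tile of the HOXA9 start, chr7:27165001-27166000, with 7.34%, 9.11% and 4.17% in controls and 6.27%, 5.01% and 5.18% in DCBQ. Among the lowest were chr7:27115001-27116000 in HOXA3 (0.54% ± 0.23 in controls) and chr7:27143001-27144000 at HOXA5 (0.65% ± 0.19).

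**Figure D5:**
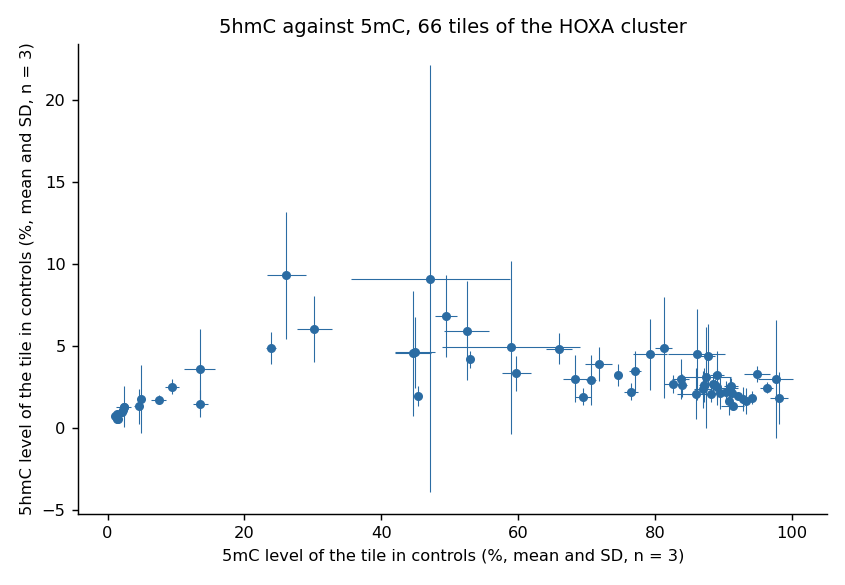
Control mean of 5hmC against control mean of 5mC for each of the 66 tiles of the cluster, both in percent, with bars for the SD of 3 controls. Tiles between 20% and 80% 5mC have a median 5hmC of 4.51%, above the medians of 1.31% and 2.5% on either side. Their median SD of 5hmC is also larger, 1.45 points beside 0.26 and 0.75.

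The 5hmC profile repeated less well between samples than that of 5mC. Across the same 66 tiles, Pearson's r was 0.058 to 0.452 between samples of 1 group and 0.057 to 0.726 between groups, as a description. Within a sample, a tile that read above its group mean in 5mC tended to read below it in 5hmC, with r from -0.35 to -0.86 over the 66 tiles and from -0.57 to -0.64 over all tiles of the table. The sum of the marks exceeded 100% by more than 0.1 points at 1.84% to 5.1% of the CpGs per sample. Where 5mC was 0, 24.3% to 30.6% of CpGs had 5hmC above 0. The part of counting error in single 5hmC values was not tested, since no depth is given.

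Of the noncoding genes in the window, described with no test, HOXA-AS2 read 81.27%, 81.75% and 80.58% 5mC in controls and 79.14%, 79.28% and 78.03% in DCBQ over 35 CpGs. HOXA10-AS read 42.53%, 37.82% and 38.67% in controls and 35.1%, 35.19% and 37.15% in DCBQ over 63 CpGs. At both, all DCBQ samples lay below all controls, by -2.38 points (SE 0.52) and -3.86 points (SE 1.6). At the other transcripts given here the groups overlapped. Of the protein-coding gene spans without their promoters, 13.7% were apart on the lower side. HOXA-AS2 includes 3 CpGs at chr7:27126001-27127000, too few for a tile test, that read 94.41% and 79.11%. It also includes the 5 CpGs of the tile chr7:27122001-27123000 named above. The 63 CpGs of HOXA10-AS are those of the tiles at chr7:27169001-27172000, among them tiles named above. HOTAIRM1 read 6.05% ± 0.98 and 6.17% ± 0.6, HOXA-AS3 50.66% ± 0.6 and 50.15% ± 0.22, HOXA11-AS 85.1% ± 0.37 and 84.92% ± 0.25, and HOTTIP, which is known to bring a Trithorax complex to the posterior genes, 52.28% ± 0.54 and 51.65% ± 0.52. The readthrough gene HOXA10-HOXA9, which shares its CpGs with both genes, read 59.35% ± 0.51 and 59.08% ± 0.73. The hairpin of MIR196B, between HOXA9 and HOXA10, held 0 measured CpGs.

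Genes that act with or on the cluster had 0 calls in either mark, at promoters and in gene spans. For promoter 5mC, the counts of lower and higher members were 4 and 5 of 9 tested HOX cofactors (PBX, MEIS and PKNOX genes and HMGB1). They were 11 and 3 of 14 Polycomb genes, 7 and 3 of 10 Trithorax and related genes, and 6 and 6 of 12 retinoic acid genes. For CDX genes, which act upstream of HOX genes, they were 2 and 1 of 3, and for neighbours of the cluster 2 and 1 of 3. An unadjusted p under 0.05 was met by 1 cofactor, HMGB1 (0.89% and 1.38%, groups apart), and by 2 retinoic acid genes. Of all promoters, 4.47% met it on the lower and 2.14% on the higher side. Among all promoters 59.6% were lower, and the groups were apart at 8.14% on the lower and 3.72% on the higher side. The list medians were 0.18, -0.22, -0.05, 0.21, -1.12 and -0.16 points, beside -0.1 for all promoters. The retinoid receptor gene RXRG had the smallest p, with 16.5%, 15.12% and 15.34% in controls and 20.12%, 19.89% and 19.38% in DCBQ (limma adjusted p = 0.466). ALDH1A3, which makes retinoic acid, read 3.75%, 3.79% and 3.73% in controls and 2.74%, 2.89% and 2.76% in DCBQ (limma adjusted p = 0.486), and both had the groups apart. In the other lists the smallest p belonged to HMGB1 and MEIS2 (0.89% and 1.41%) and to the Polycomb genes PCGF2 (2.07% and 1.43%) and JARID2 (5.56% and 5.07%). Among Trithorax and related genes it belonged to KMT2B (1.67% and 1.28%, groups apart) and KDM6A (1.31% and 0.96%). For CDX2 the means were 47.33% and 45.04%, for CDX1 85.96% and 84.85%, and for the neighbours SKAP2 40.42% and 39.8% and EVX1 5.1% and 4.94% (limma adjusted p of 0.716 or more for all of these).

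In the gene spans of the same lists, 5mC was lower and higher at 8 and 1 of 9 cofactors and 9 and 5 of 14 Polycomb genes. Trithorax and related genes counted 6 and 4 of 10, and retinoic acid genes 11 and 2 of 13. CDX genes counted 2 and 0 of 2, and neighbours 3 and 0 of 3, where 69.7% of all spans were lower. The list medians were -0.6, -0.09, -0.29, -0.47, -0.53 and -0.82 points, beside -0.39 for all spans. An unadjusted p under 0.05 on the lower side, met by 7.08% of all spans, was met by the Polycomb gene PHC2 (39.43% and 38.39%) and by 4 retinoic acid genes. These were RXRA (78.93% and 77.79%), CYP26B1 (57.88% and 56.72%), ALDH1A2 (74.28% and 72.22%) and the retinol transporter gene STRA6 (79.86% and 75.98%), with limma adjusted p from 0.565 to 0.574. The mean over the cofactor spans read 67.16%, 67.06% and 66.89% in controls and 66.75%, 66.53% and 66.41% in DCBQ, apart on the lower side, and the other list means overlapped.

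In 5hmC, the mean over the retinoic acid spans read 3.41%, 3.69% and 3.69% in controls and 3.89%, 4.37% and 4.33% in DCBQ, apart on the higher side, with 5 members lower and 8 higher (43.7% of all spans were lower). STRA6 (3.87% and 5.86%) was the member with an unadjusted p under 0.05 (limma adjusted p = 0.927). The 5hmC means of the other lists overlapped between groups in spans, and those of all 6 lists did in promoters. At promoters, 5hmC was lower at 8 of 9 cofactors, 5 of 13 Polycomb genes and 4 of 10 Trithorax and related genes. It was lower at 5 of 12 retinoic acid, 2 of 3 CDX and 3 of 3 neighbouring genes, beside 46.0% of all promoters.

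As a check of the labelled epithelial origin, promoters of epithelial markers averaged 5.4% 5mC in controls (11 of 12 measured) and 4.79% in DCBQ. Leukocyte and endothelial markers averaged 75.28% and 73.55% (6 of 9), with all DCBQ samples below all controls. Fibroblast markers averaged 44.02% and 44.94% (3 of 8), but the members differed widely, with VIM at 1.22% and COL1A2 at 75.92% in controls. That average therefore does not set fibroblast from epithelial promoters. Urothelial markers averaged 46.39% and 47.43% (5 of 8), with PPARG at 34.91% ± 1.16 and GATA3 at 52.23% ± 15.36 in controls. Promoter methylation is not a measure of expression. All samples are labelled as the same cell line, and a part of other cell types in any HOXA difference was not tested.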

How the data were processed

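Libraries of RRBS and oxidative RRBS (Ovation RRBS Methyl-Seq with TrueMethyl oxidation, per the labels' protocols) were processed by the authors with cutadapt, Trim Galore and BSMAP 2.90 on hg38, per the submitters' processing notes. The authors deposited 1 fraction per CpG, sample and mark, with strands merged and at least 5 reads, per the file names. No depth is given, so no interval or count test could be made, and the sources used here do not give how both kinds of library were combined.

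Fractions were turned into percent and averaged with equal weight per CpG over promoters, gene spans and 1 kb tiles with at least 5 CpGs. Limma 3.58.1 in R 4.3.3 (lmFit, eBayes with trend) compared 3 control with 3 DCBQ samples over the whole table, adjusted by Benjamini-Hochberg, with a threshold of 0.05. Single CpGs that varied were tested likewise and also needed a difference of 10 points. Single averages were compared by exact permutation in Python 3.11.15. The scripts were tested on simulated data. Groups are called apart where all 3 values of one lie above all 3 of the other.

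Named were the genes of the window, the 3 tiles and 3 CpGs with the smallest p in each direction, the 3 highest and 3 lowest tiles of at least 10 CpGs, and the 2 genes of smallest p in each list. The members and lists were chosen with earlier results of these data known, and the 300-base promoters and low runs after the values were seen. Alternatives were centring, log-odds, equal tile weights, CpGs in both tables, gene spans only, leaving out each sample and a replicate block. Gene names and spans come from RefSeq. The RNA-seq mentioned by the design was not analysed here. An item of the window is not reported here, and counts of promoters and spans are over the other HOXA genes, while CpGs, tiles and runs are counted over the whole window.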

Additional observations from a re-analysis of the deposited data

How the results depend on the processing

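No HOXA promoter, gene span, tile or CpG was called by limma under any alternative that was run, but directions and sizes changed. The averages over clusters could not reach 0.05 under any alternative. Their smallest possible p was 0.1 by exact permutation and 0.25 by exact sign flip. Raising the minimum of 5 reads was not run, since no depth is given, and this also limits what single CpGs can show. Of 82 named units, 54 kept their direction under every alternative and 28 did not under at least 1. With the averages over clusters added there were 94 differences, of which 58 kept their direction throughout. Of these 58, 30 moved by over 1.5 times without some 1 sample and 11 when each sample was centred, among them the HOXA3 span in 5mC (-0.626 to -0.21). The cause was not tested.

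The cluster difference in 5mC was -1.158 points with every tile weighted alike, tiles of under 5 CpGs included. It was -0.302 over the HOXA spans, -0.298 over CpGs of both tables, -0.4 to -0.185 without any 1 sample, and 0.1 relative to all other CpGs. For 5hmC it was 0.12 with equal tile weights and -0.165 to 0.08 without any 1 sample. Samples with the same replicate number did not deviate together (r from -0.035 to 0.009 across tiles of the table). The labels do not tell whether such samples were grown or prepared together, which these values cannot show. With the replicate block the cluster differences were -0.316 points for 5mC (exact sign-flip p = 0.25, the smallest possible) and -0.049 for 5hmC (p = 0.75), and the block changed no call.

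Centring each sample turned 5mC at the 2 kb promoters of HOXA4 (0.299), HOXA5 (0.185), HOXA6 (0.289) and HOXA13 (0.197), the spans of HOXA2 (0.182) and HOXA10 (0.07), and the 300-base promoters of HOXA11-AS (0.222), HOXA13 (0.282) and HOTTIP (0.066), and 5hmC in the HOXA3 span (-0.004). On the log-odds scale HOXA3 turned, with -0.01 (5mC) and 0.008 (5hmC) at the 2 kb promoter and 0.099 (5hmC) at the start 27150950.

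Leaving out 1 sample turned further differences, given as the lowest and highest value. For 5mC summaries these were -0.041 to 0.273 for HOXA minus the rest, -0.083 to 0.246 for HOXA minus HOXC, and -0.393 to 0.136 for posterior minus anterior genes. For 5hmC summaries they were -0.169 to 0.092 against HOXB, -0.043 to 0.186 against HOXD, and -0.224 to 0.209 for posterior minus anterior genes. For 5mC promoters they were -1.059 to 1.695 (HOXA3), -0.32 to 0.096 (HOXA4), -0.494 to 0.155 (HOXA6), -1.025 to 1.279 (HOXA10) and -0.375 to 0.023 (HOXA13). For 5mC spans they were -0.982 to 0.773 (HOXA2), -0.161 to 0.482 (HOXA4), -0.258 to 1.067 (HOXA7) and -0.786 to 0.285 (HOXA10). For 5hmC promoters they were -0.642 to 0.054 (HOXA2), -1.102 to 1.099 (HOXA3), -0.149 to 0.014 (HOXA5), -0.447 to 0.22 (HOXA11) and -0.126 to 0.313 (HOXA13). For 5hmC spans they were -0.192 to 0.997 (HOXA2), -1.174 to 0.826 (HOXA5) and -0.129 to 1.679 (HOXA10). For 300-base promoters they were, in 5mC, -0.515 to 1.88 (HOXA10), -0.185 to 0.677 (HOXA11), -0.887 to 0.353 (HOXA11-AS) and -0.305 to 0.054 (HOXA13), and in 5hmC -0.679 to 0.368 and -0.556 to 0.12 (HOXA3, starts 27150950 and 27113842) and -2.677 to 1.442 (HOXA7). The 5hmC difference at CpG 27169828 was 0 without DCBQ sample 3 and at most 23.077.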
